A study of Rattus norvegicus with 38 samples.

Results

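A heart transplanted into the abdomen of a rat of the same inbred strain was compared with the heart that stayed in the chest of the same recipient. Of the 38 samples of the series, 8 belong to this comparison: the isografts (transplanted hearts of the donor's own strain) of rats 9, 11, 12 and 13 and the native hearts of these 4 rats, chosen by their labels and paired by the rat's number. All 8 hearts were of the Dark Agouti (DA) strain, none of the labels gives a drug or an altered allele, and both hearts of a pair were taken on post-transplant day 6. Each donor was another DA rat. Its heart was flushed, given an opening in the atrial septum and a disrupted tricuspid valve, and joined to the abdominal aorta and inferior vena cava of the recipient. The isografts resumed beating and were accepted. The 5 DA allografts in Brown Norway (BN) recipients and the native BN hearts of those rats are used only where stated. The age and sex of the rats are not given in the sources used here.

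A graft in this position is perfused through its coronary arteries, has lost its nerves, and has passed through a period without blood flow and reperfusion. How much blood these grafts pumped, with an opened septum and a disrupted valve, is not given in the sources used here. The native heart of the same rat shares the blood, hormones and anesthesia of the graft. It does not share these conditions, the donor animal or the handling of the donor heart, and the design cannot tell them apart. In injured or unloaded myocardium, fibroblasts are known to turn into matrix-secreting cells, macrophages clear damaged cells, and cardiomyocytes return to some genes of the fetal heart. Adult cardiomyocytes otherwise live mainly on the oxidation of fatty acids in their many mitochondria.

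Cross-sections of both ventricles and the septum were measured on 1 Affymetrix RAE230A array per heart. Signals are given in array medians, which means that a value of 1 is the median signal of that array. Before this step the median signal was 40.5, 41.2, 44.8 and 40.5 in the native hearts of rats 9, 11, 12 and 13, and 38.8, 47.0, 45.9 and 39.9 in their isografts. The tissue matched its label. The cardiac myosin Myh6 lay between 91.0 and 126 array medians in native hearts and between 60.3 and 109 in isografts. The skeletal muscle myosin Myh4 did not pass 0.166 in any of the 8 hearts. The atrial light chain Myl7 lay below 1 array median in each of the 8 hearts. Another atrial light chain, Myl4, was at 0.706 to 1.24 in native hearts and 0.998 to 2.34 in isografts, and was higher in 4 of 4 pairs. The summed signal of 3 of 3 defining atrial markers was 1.42 to 2.81 in native hearts and 1.73 to 3.18 in isografts.

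The large changes in accepted grafts were mostly increases. In a paired fit with limma over the 8 arrays, 207 of 15866 probesets (1.30%) were higher in isografts at an adjusted p of at most 0.10, and 73 (0.460%) were lower. When a change of 3-fold or more was also required, together with a signal that reached the array median in 50% or more of the hearts of either group, 89 probesets (0.561%) were called higher and 7 (0.0441%) lower. The 89 included 77 with 1 gene symbol, which stand for 69 genes. Of the 73 lower probesets 46 did not reach the signal criterion, against 37 of the 207 higher ones. The median change over all probesets was -0.08 on the log2 scale.

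**Figure D1:**
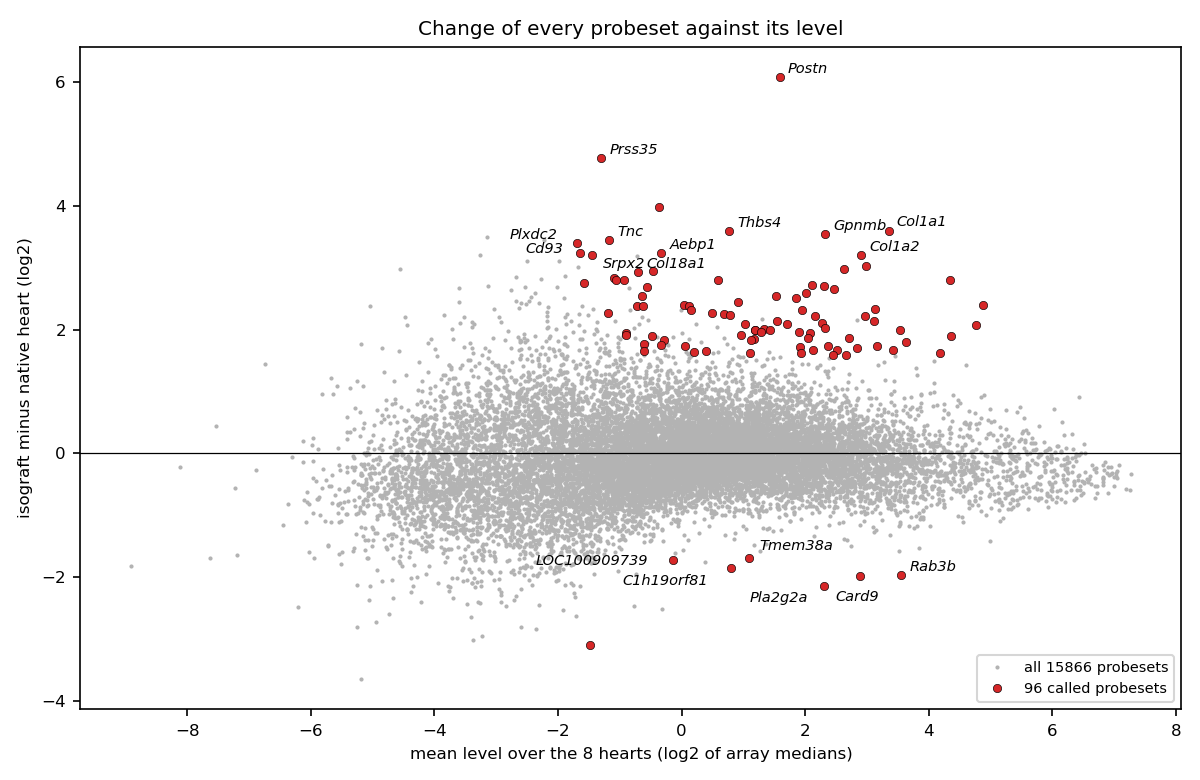
Change between isograft and native heart (log2, mean of 4 pairs) of each of 15866 probesets against its mean level over the 8 hearts (log2 of array medians). The 96 called probesets are red, 89 above 0 and 7 below, and the leading genes are named.

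With 4 pairs the paired fit has few degrees of freedom, and no probeset passed the adjusted threshold when any 1 of the 4 rats was left out, although all 89 and all 7 kept their direction. The same paired difference was therefore also tested with the spread estimated from all 18 heart arrays, which include rejecting allografts and native BN hearts. There 936 probesets (5.90%) were higher and 935 (5.89%) were lower at an adjusted p of at most 0.10. Counted without a test, 2291 probesets (14.4%) were higher in 4 of 4 pairs and 3117 (19.6%) were lower in 4 of 4 pairs. At an unadjusted p of at most 0.05 in the paired fit, 1544 of the 15866 probesets were higher and 1997 were lower. List counts below are to be read beside these counts over all probesets. Gene counts are given below under the paired fit of 8 arrays first, and "rose" and "fell" refer to that fit unless the wider estimate is named.

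The gene with the largest called increase was Postn, which encodes periostin, a matrix protein made by activated fibroblasts. Its signal was 0.172, 0.239, 0.774 and 0.556 array medians in the native hearts of rats 9, 11, 12 and 13, and 23.5, 32.9, 27.6 and 17.6 in their isografts. The groups did not overlap, and the native signals were all below the array median. The change was 68.0-fold (log2 6.09, SE 0.47, limma adjusted p = 0.0431). Because weak signals on these arrays are imprecise, the size of this ratio rests on 4 native values that range over more than 4-fold, from 0.172 to 0.774.

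Both chains of type I collagen, the main fibre of scar, rose from signals that were already clear in native hearts. Col1a1 was at 2.26, 2.14, 4.55 and 3.34 array medians in native hearts and at 24.0, 50.1, 48.1 and 27.7 in isografts, a 12.2-fold rise (log2 3.60, SE 0.29, adjusted p = 0.0431). Col1a2 went from 2.13, 2.63, 2.49 and 2.61 to 17.1, 28.5, 30.9 and 17.9, a 9.28-fold rise (log2 3.21, SE 0.21, adjusted p = 0.0375). For both genes the isografts of rats 11 and 12 had the higher signals and those of rats 9 and 13 the lower ones. A second probeset of each gene moved alike, by 2.99 for Col1a1 and 3.04 for Col1a2 on the log2 scale.

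Thrombospondin 4 (Thbs4) and tenascin C (Tnc), both matricellular proteins that appear in injured or strained tissue, changed evenly over the rats. Thbs4 was at 0.463, 0.686, 0.593 and 0.313 array medians in native hearts and at 5.96, 8.61, 5.39 and 4.51 in isografts (12.1-fold, log2 3.59, SE 0.19, adjusted p = 0.0294). Tnc was at 0.146, 0.118, 0.158 and 0.120 in native hearts and at 1.41, 1.77, 1.70 and 1.09 in isografts (10.9-fold, log2 3.45, SE 0.20, adjusted p = 0.0294). All 4 native values of Tnc were weak signals.

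Among the other leading risers were Gpnmb, a glycoprotein of phagocytic macrophages, and several genes of matrix assembly or vessels. Gpnmb was at 1.60, 0.935, 1.65 and 1.84 array medians in native hearts and at 12.6, 19.2, 38.9 and 8.98 in isografts (11.7-fold, log2 3.55, SE 0.44), and its isograft values ranged over more than 4-fold. Aebp1, a collagen-binding matrix protein, rose 9.42-fold (log2 3.24, SE 0.31), and Srpx2, a secreted protein with sushi repeats, rose 9.25-fold (SE 0.48 on the log2 scale). Prss35, a protease-like secreted protein, went from at most 0.214 to between 1.64 and 2.88 array medians (27.4-fold, SE 0.67). Plxdc2, a plexin-domain membrane protein, went from at most 0.114 to between 0.881 and 1.25 (10.6-fold, SE 0.19).

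For Cd93 and Col18a1 the probesets of the gene differed in size or direction. Cd93, a receptor of endothelial and myeloid cells, rose 9.45-fold by 1 probeset (log2 3.24, SE 0.41, adjusted p = 0.0762), whereas its brighter probeset was at -0.57 (adjusted p = 0.311). Col18a1, the basement membrane collagen from which endostatin is cut, rose by 2.93 (SE 0.41) in 1 probeset and by 1.05 in the brighter one. The native signals of both called probesets lay between 0.0576 and 0.342 array medians.

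**Figure D2:**
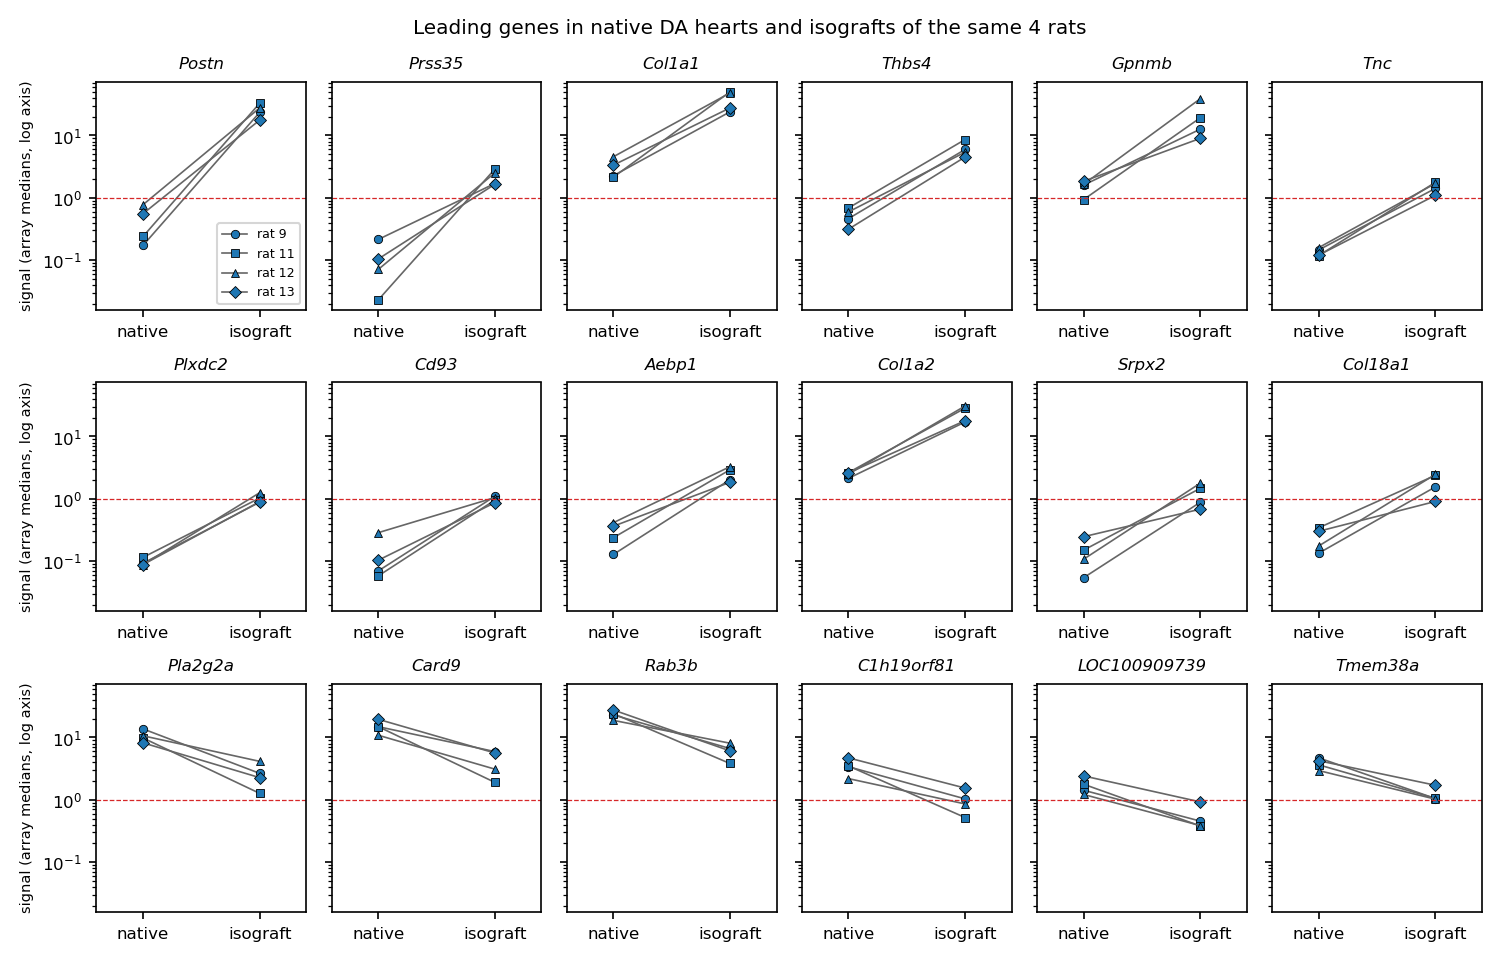
Signal (array medians, log axis) of the 12 leading genes that rose and the 6 that fell in the native heart and isograft of rats 9, 11, 12 and 13, with a line for each rat and a dashed line at 1 array median. In every panel the 4 isografts lie on one side of the 4 native hearts, and several native values of the rising genes lie below 0.1 array medians.

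The rise was shared by most of the collagens. Of 18 measured collagen genes, 11 rose, none fell and 7 did not pass the test, against the 1.30% of all probesets that were higher. With the spread of 18 arrays 12 were higher, and 15 of 18 were higher in 4 of 4 pairs, beside 5.90% and 14.4% of all probesets. Their median change was 2.05 on the log2 scale, and -0.08 over all probesets. Col5a2, a chain of the fibril-regulating type V collagen, was at 1.55 to 2.33 array medians in native hearts and 8.65 to 17.7 in isografts (6.5-fold, SE 0.28). The other collagen genes that passed, named after their values were seen, were Col3a1 (log2 2.41), Col6a1 (2.23), Col6a2 (2.51), Col6a3 (2.67), Col8a1 (2.24), Col4a1 (1.87) and Col4a2 (1.15), so fibrillar, beaded-filament and basement membrane types were all among them.

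Other matrix classes rose in smaller shares. Of 21 matricellular proteins and glycoproteins 7 rose and none fell, with a median of 0.91 on the log2 scale. In 4 of 4 pairs 14 of 21 were higher, beside 14.4% of all probesets. Of 27 genes of proteoglycans, elastic fibres and basement membrane 6 rose and none fell (median 0.83). Ltbp2, a microfibril protein, rose 5.31-fold (SE 0.18 on the log2 scale) and Fbn1, the fibrillin backbone of these microfibrils, 4.99-fold (SE 0.30). Mfap4, a microfibril glycoprotein, was at 3.20, 3.17, 6.47 and 4.36 array medians in native hearts and at 15.5, 23.1, 19.3 and 15.6 in isografts (4.41-fold, SE 0.26, adjusted p = 0.0762), but with the spread of 18 arrays its adjusted p was 0.121. Dcn, the small proteoglycan of resting fibroblasts, was at 34.1 to 47.8 array medians in native hearts and 45.7 to 59.7 in isografts (log2 0.36, SE 0.19, adjusted p = 0.324), and the groups overlapped.

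Genes that cut, protect and crosslink matrix were part of the pattern. Of 27 measured, 7 rose and none fell (median 0.51). Timp1, an inhibitor of matrix metalloproteinases, went from 2.52, 1.19, 1.23 and 2.17 array medians in native hearts to 12.3, 13.8, 10.8 and 8.37 in isografts, a 6.62-fold rise (log2 2.73, SE 0.32, adjusted p = 0.0762). Lox, the enzyme that crosslinks collagen and elastin, rose 4.76-fold (SE 0.33), from at most 0.970 to between 2.55 and 4.74. After quantile normalization 3 of the 27 rose and Lox did not pass. Plaur, the receptor of urokinase, rose 4.60-fold by its brighter probeset (SE 0.20) but stayed at or below 0.648 array medians, and its other probeset was at -0.26.

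The promoter of Postn is shown because this gene changed most among the called ones. It is the 250 bases before the annotated start in RefSeq (build GRCr8, chr2:140677811-140678060, plus strand), 5′ to 3′ on the strand of the gene, and the capitals mark a TATAAA match that ends 39 bases before the start.
Postn promoter: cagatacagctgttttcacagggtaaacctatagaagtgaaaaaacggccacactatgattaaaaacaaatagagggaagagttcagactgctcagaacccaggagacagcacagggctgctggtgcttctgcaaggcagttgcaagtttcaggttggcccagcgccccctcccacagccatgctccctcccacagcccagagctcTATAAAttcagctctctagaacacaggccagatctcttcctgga
On either strand, TATAAA occurred in 9 of the 50 genes called higher that had a promoter in this table (18%), among them Col1a2, Tnc, Ccn2, Vim and S100a4. It occurred in 12.9% of all 33469 promoters of that length and in 8.37% of the 8630 whose genes are on the array. The AP-1 motif TGANTCA occurred in 4 of the 50 (8.0%), in 6.34% of all promoters and in 4.90% of those whose genes are on the array. The 33469 promoters belong to 27457 genes, whereas a single promoter per gene was used for the other shares. These shares are descriptions of letters in a fixed window and were not tested.

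Markers of fibroblasts rose in part. Of 16 measured, 3 rose and none fell under the paired fit, and 6 were higher with the spread of 18 arrays. Over all probesets 1.30% and 5.90% were higher by these measures. The summed signal of 3 of 3 defining fibroblast markers (Pdgfra, Col1a1 and Dcn) was 38.5 to 52.3 array medians in native hearts and 85.4 to 103 in isografts. Col1a1 gave the larger part of that rise in rats 11, 12 and 13, and Dcn in rat 9. Pdgfra, a receptor of the fibroblast surface, was at 2.19, 2.12, 2.65 and 1.18 in native hearts and at 4.38, 4.84, 4.29 and 3.94 in isografts (log2 1.16, SE 0.23, adjusted p = 0.109), without overlap but short of the threshold. Thy1, a surface protein of fibroblasts and T cells, rose 6.99-fold (SE 0.40), with 0.110 to 0.515 array medians in native hearts and 0.769 to 1.52 in isografts, and its other probeset was at 1.29 (adjusted p = 0.235). S100a4 rose 4.0-fold (SE 0.26) and the intermediate filament gene Vim 3.08-fold (SE 0.18). Smooth muscle actin Acta2, which marks contractile myofibroblasts, was at 2.17 to 2.66 in native hearts and at 2.68, 5.50, 5.08 and 2.70 in isografts (log2 0.63, SE 0.26, adjusted p = 0.232). Only the isografts of rats 11 and 12 stood well above the native hearts for Acta2. In bulk tissue, more cells of a type and more RNA per cell cannot be told apart.

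Growth factors known to act on fibroblasts were among the risers. Of 39 measured genes of TGF-beta, BMP and growth factor signaling, 5 rose and 1 fell, and their median change of 0.28 was small. Tgfb1 was at 0.792, 0.879, 0.958 and 0.456 array medians in native hearts and at 2.02, 2.55, 2.87 and 2.04 in isografts (3.16-fold, SE 0.20, adjusted p = 0.0762). Igf1, a growth factor made by macrophages and fibroblasts, went from 1.83, 2.58, 2.73 and 2.86 to 8.83, 11.7, 13.0 and 7.77 (4.10-fold, SE 0.22, adjusted p = 0.0632), and its second probeset changed by 2.22 on the log2 scale. Ccn2, a matricellular target of TGF-beta, went from 4.32, 3.99, 3.44 and 3.82 to 15.7, 28.6, 19.3 and 17 (5.05-fold, SE 0.22, adjusted p = 0.0550). The receptor gene Tgfbr1 rose 2.97-fold by its brighter probeset (SE 0.19), while its other probeset was at -1.41. The member that fell, named after its value was seen, was Vegfb, a growth factor made by cardiomyocytes (log2 -1.17).

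Only some genes of the fetal and stressed heart moved. Of 19 measured, 4 rose, none fell and 15 did not pass the test (median 0.30). The 4 were Acta1, Nppa, Uchl1 and Ccn2, which is also a matrix gene. Acta1, the skeletal alpha-actin that the fetal ventricle uses, was at 7.77, 6.72, 7.35 and 8.94 array medians in native hearts and at 57.3, 60.0, 45.8 and 52.0 in isografts. This 6.99-fold rise was even over the rats (log2 2.80, SE 0.19, adjusted p = 0.0375). Nppa, which encodes atrial natriuretic peptide, went from 13.4, 8.33, 15.7 and 17.2 to 79.4, 65.4, 38.2 and 48.8 (4.23-fold, log2 2.08, SE 0.35, adjusted p = 0.0944), a call that was lost after quantile normalization. It was also the single riser of 16 atrial and conduction genes, of which none fell. The atrial light chain Myl4 did not pass (log2 0.72, SE 0.17, adjusted p = 0.124), but its adjusted p was 0.0336 with the spread of 18 arrays. Uchl1, a ubiquitin hydrolase of nerve and stressed muscle, rose 7.33-fold (SE 0.43) but stayed below 1 array median in each isograft.

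Other stress markers, picked after their values were seen, did not pass. The fetal myosin Myh7 was at 74.5, 60.6, 58.0 and 59.7 array medians in native hearts and at 142, 95.8, 96.1 and 151 in isografts (1.89-fold, SE 0.19, adjusted p = 0.116), and it was higher with the spread of 18 arrays (adjusted p = 0.0866). A dimmer Myh7 probeset changed by more, 4.46-fold (log2 2.16, SE 0.42), with an adjusted p of 0.109 in the paired fit and 0.0232 with the spread of 18 arrays, and was higher in 4 of 4 pairs. Nppb, the related natriuretic peptide, was at 22.2 to 53.0 in native hearts and 34.2 to 54.1 in isografts (log2 0.28, SE 0.25, adjusted p = 0.539). Ankrd1, a titin-binding protein that answers to stretch, was at 64.5 to 78.1 and at 74.1 to 111 (log2 0.32, SE 0.17, adjusted p = 0.316). The groups overlapped for Nppb and Ankrd1 and did not overlap for Myh7.

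The Acta1 promoter is shown as that of the fetal gene with the most even change (RefSeq, build GRCr8, chr19:68784195-68784444, minus strand), 5′ to 3′ on the strand of the gene. The capitals mark a CArG box, the motif of serum response factor, from 94 to 85 bases before the start, and a TATAAA match from 29 to 24 bases before it.
Acta1 promoter: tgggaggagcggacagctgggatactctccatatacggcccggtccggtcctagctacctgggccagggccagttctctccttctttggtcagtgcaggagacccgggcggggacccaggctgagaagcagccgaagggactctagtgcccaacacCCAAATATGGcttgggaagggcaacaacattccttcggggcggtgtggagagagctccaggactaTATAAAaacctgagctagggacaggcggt
Acta1 was the only 1 of the 50 genes called higher with a promoter in the table that held a CArG box on either strand (2.0%), beside 1.5% of all promoters and 1.30% of those of genes on the array.

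The main contractile and calcium genes did not pass the test. None of 25 sarcomere genes and none of 25 calcium handling genes rose or fell under the paired fit (with the spread of 18 arrays, 3 and 1 were higher and 1 and 2 lower). At an unadjusted p of at most 0.05, 3 of each list were higher and 4 of each were lower. Over all 15866 probesets 1544 were higher and 1997 lower at that threshold. The summed signal of 5 of 6 defining ventricular markers, which were those measured, was 680 array medians in the native heart and 685 in the isograft of rat 9. It was 586 and 376 in rat 11, 511 and 422 in rat 12, and 820 and 637 in rat 13. Single ventricular markers changed by between -0.19 (Myl2) and -0.41 (Myh6) on the log2 scale, with adjusted p from 0.257 to 0.611. Of 23 ion channels and connexins none passed under the paired fit, 9 were lower at an unadjusted p of at most 0.05 and 2 were lower with the wider estimate. Tmem38a, the TRIC-A channel of the sarcoplasmic reticulum, was called lower. It was at 4.71, 3.64, 2.94 and 4.24 array medians in native hearts and at 1.05, 1.05, 1.02 and 1.71 in isografts (3.24-fold lower, log2 -1.70, SE 0.21, adjusted p = 0.0762), and its brighter probeset was at -1.03 (adjusted p = 0.117).

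Genes of oxidative metabolism were lower together by small amounts, which the paired fit of 8 arrays seldom called. Of 54 respiratory chain and ATP synthase genes 1 fell and none rose, whereas with the spread of 18 arrays 26 were lower and none was higher, beside 5.89% of all probesets. In 4 of 4 pairs 44 of the 54 were lower, beside 19.6% of all probesets, and their median change was -0.58. Of 28 genes of the citric acid cycle and pyruvate entry none passed in the paired fit, while 13 were lower at an unadjusted p of at most 0.05, 13 with the wider estimate and 17 in 4 of 4 pairs (median -0.50). Of 39 genes of fatty acid uptake and oxidation 1 fell and none rose, 12 were lower and 1 higher with the wider estimate, and 26 were lower in 4 of 4 pairs (median -0.54). With quantile normalization these medians were -0.36, -0.32 and -0.26.

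The named members of these groups were chosen because they passed the paired fit, so their lack of overlap is no further result. Cox7a1, the muscle form of a cytochrome oxidase subunit, was at 14.2, 13.8, 10.8 and 15.5 array medians in native hearts and at 5.77, 4.67, 5.33 and 6.64 in isografts (2.42-fold lower, log2 -1.28, SE 0.18, adjusted p = 0.0823). Mlycd, which breaks down the malonyl-CoA that restrains fatty acid entry into mitochondria, went from 14.3, 9.39, 11.3 and 12.5 to 7.56, 4.93, 5.43 and 6.85 (1.92-fold lower, SE 0.16, adjusted p = 0.0944), and did not pass after quantile normalization. By contrast Cpt1b, the entry enzyme of the same pathway, and the fatty acid transporter Cd36, both picked after their values were seen, were at -0.21 (adjusted p = 0.524) and -0.29 (adjusted p = 0.365) and overlapped.

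Of 29 measured genes of glycolysis and glucose transport 1 fell and none rose (median -0.14), beside 0.460% and 1.30% of all probesets. With the wider estimate 5 were lower and 1 higher, beside 5.89% and 5.90% of all probesets. In 4 of 4 pairs 11 were lower and 2 higher, beside 19.6% and 14.4% of all probesets. The list median was between -0.38 and -0.01 in the 4 rats. Pgam2, the muscle phosphoglycerate mutase, went from 47.4, 45.2, 41.1 and 81 array medians in native hearts to 26.8, 13.4, 15.8 and 25.1 in isografts (2.66-fold lower, log2 -1.41, SE 0.22, adjusted p = 0.0906), but had an adjusted p of 0.178 with the spread of 18 arrays. Slc2a4, the insulin-dependent glucose transporter, picked after its values were seen, was at 17 to 21 in native hearts and at 13.1, 5.33, 6.02 and 12.7 in isografts (2.24-fold lower, SE 0.27, adjusted p = 0.127, and 0.0603 with the spread of 18 arrays). The isografts of rats 11 and 12 had the lower values of Pgam2 and Slc2a4.

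**Figure D3:**
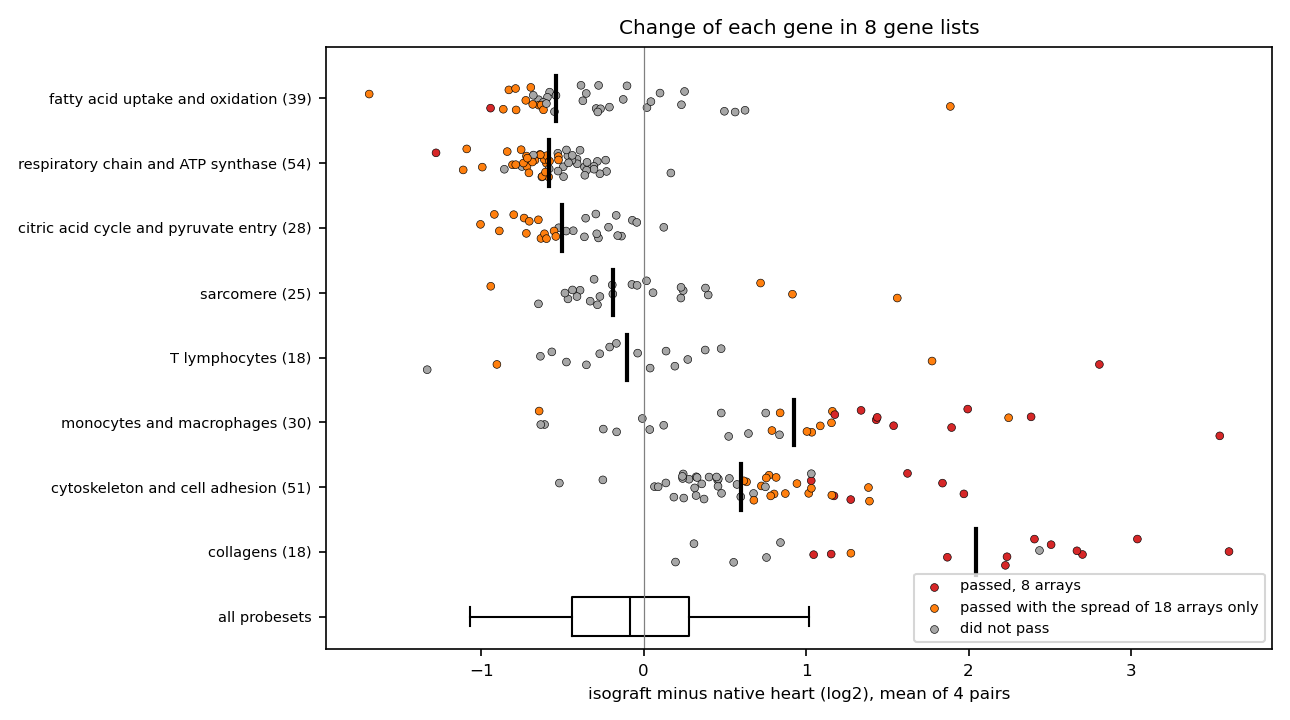
Change between isograft and native heart (log2, mean of 4 pairs) of each measured gene in 8 gene lists, with the number of genes in brackets and the list median as a black bar. Red genes passed in the paired fit of 8 arrays, orange genes passed only with the spread of 18 arrays, and the box at the bottom shows the median, quartiles and 5th to 95th percentiles of all probesets. Collagens lie to the right with a median of 2.05, and respiratory chain genes lie slightly to the left with a median of -0.58.

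Part of the macrophage genes rose in these accepted grafts. Of 30 monocyte and macrophage genes 9 rose and none fell, 17 were higher and 1 lower with the spread of 18 arrays, and 21 were higher in 4 of 4 pairs (median 0.92), beside 1.30%, 5.90% and 14.4% of all probesets that were higher by these 3 measures. The summed signal of 3 of 3 defining macrophage markers was 3.81 to 5.25 array medians in native hearts and 9.59 to 15.6 in isografts. Cd68, a lysosomal glycoprotein of macrophages, was at 1.20, 1.23, 0.922 and 1.26 in native hearts and at 4.11, 4.56, 7.86 and 2.90 in isografts (3.99-fold, SE 0.34, adjusted p = 0.0976). Clec4a3, a lectin receptor of myeloid cells, rose 5.22-fold (SE 0.38). Csf1r, the receptor for macrophage growth factor, was at 1.44 to 2.96 and at 4.07 to 5.57 (2.23-fold, SE 0.24, adjusted p = 0.116, and 0.0249 with the spread of 18 arrays). Cd14 was at 0.781 to 1.37 and at 1.52 to 3.07 (2.05-fold, SE 0.30, adjusted p = 0.159, and 0.0640 with the spread of 18 arrays). For Cd68 the isograft of rat 12 stood highest and that of rat 13 lowest, as for Gpnmb. After quantile normalization 4 of the 30 rose, and Cd68 and Clec4a3 did not pass.

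Further macrophage genes that rose, named after their values were seen, included Lyz2, the lysozyme of myeloid cells (2.70-fold), the lipid carrier Apoe (log2 1.90), the galectin Lgals3 (1.44), the protease Ctss (1.34) and the scavenger receptor Stab1 (1.54). The probesets of Aif1, a macrophage calcium-binding protein, differed in direction: its brightest was at -0.61 (adjusted p = 0.198) and another was called higher at 1.73.

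Some chains of MHC class II rose, whereas the class II invariant chain did not pass. Of 26 antigen presentation genes 6 rose and none fell, and 8 were higher with the spread of 18 arrays (median 0.21). RT1-Bb, a class II beta chain, was at 3.03, 1.92, 1.81 and 2.00 array medians in native hearts and at 9.86, 10.2, 6.67 and 6.96 in isografts (3.86-fold, SE 0.19, adjusted p = 0.0594), although a second, dimmer probeset was at -2.14 (adjusted p = 0.165). RT1-Da, a class II alpha chain, went from 7.56, 6.90, 4.60 and 6.68 to 21.4, 20.4, 14.6 and 19.98 (2.98-fold, SE 0.16, adjusted p = 0.0586). Tap1, the peptide pump of class I presentation, rose 3.25-fold by its brighter probeset (SE 0.24), staying at or below 0.820 array medians, and its other probeset was at -0.39. The remaining 3 risers, named after their values were seen, were the class II genes RT1-Ba (log2 1.24, with a dimmer probeset at 0.42) and RT1-Db1 (1.38) and the protease Ctss. Cd74, the invariant chain, also picked after its values were seen, was at 47.2, 43.7, 34.6 and 50.8 array medians in native hearts and at 47.6, 34.1, 35.1 and 47.6 in isografts (log2 -0.10, SE 0.17, adjusted p = 0.743), and the groups overlapped. Both hearts of a pair carry the same DA alleles of these genes.

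No defining marker of lymphocytes or neutrophils passed in the paired fit. The summed signal of 4 of 4 defining T cell markers was 0.624 to 1.67 array medians in native hearts and 1.15 to 1.69 in isografts. Cd3e, a chain of the T cell receptor complex, was at 0.332, 0.261, 0.298 and 0.272 in native hearts and at 0.277, 0.337, 0.270 and 0.252 in isografts (log2 -0.04, SE 0.19, adjusted p = 0.923). Cd8a was at 0.0916 to 0.368 and at 0.0969 to 0.585 (log2 0.48, SE 0.64, adjusted p = 0.688). Of 18 T cell genes 1 rose and none fell, and the riser was Thy1, which fibroblasts also carry. Of 13 cytotoxic and natural killer cell genes none rose or fell under the paired fit, and 3 were lower at an unadjusted p of at most 0.05 and 2 with the spread of 18 arrays. Signals this far below the array median are imprecise, so a change in a small number of lymphocytes was not detectable here.

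Neutrophil and red cell markers had lower mean signals in isografts and did not pass in the paired fit. S100a9, a calcium-binding protein of neutrophils, was at 2.61, 2.10, 2.99 and 1.70 array medians in native hearts and at 1.97, 0.764, 2.01 and 1.02 in isografts (1.73-fold lower, SE 0.23, adjusted p = 0.163). With the spread of 18 arrays S100a9 was lower (adjusted p = 0.0892), whereas the neutrophil marker S100a8 passed in neither fit (adjusted p = 0.258, and 0.142 with the spread of 18 arrays). The summed signal of 2 of 3 neutrophil markers, those measured, was 2.01 to 3.66 in native hearts and 0.979 to 2.56 in isografts. For the 2 of 2 red cell markers it was 164 to 281 and 98.3 to 175. Alas2, the heme synthesis enzyme of red cells, was at 12.7, 19, 15.8 and 17.7 in native hearts and at 5.50, 7.67, 11.6 and 9.89 in isografts (1.93-fold lower, SE 0.21, adjusted p = 0.122, and 0.0674 with the spread of 18 arrays), without overlap. Of 15 genes of red cells and heme synthesis none passed in the paired fit (median -0.71). By contrast 8 were lower at an unadjusted p of at most 0.05, 8 with the wider estimate and 10 in 4 of 4 pairs. Over all probesets 1997 of 15866, 5.89% and 19.6% were lower by these measures. Whether less blood in the isograft samples had a part in the neutrophil values was not tested. Mcpt10, a mast cell protease, fell 7.02-fold (SE 0.42), from 0.0263 to 0.185 array medians to at most 0.0155, all of them very weak signals, and did not pass after quantile normalization. It was the single gene to pass of 18 genes of granulocytes and mast cells.

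Among inflammatory mediators, 1 of 51 cytokines, chemokines and receptors rose and none fell, beside 1.30% and 0.460% of all probesets. With the spread of 18 arrays 7 were higher and 5 lower, beside 5.90% and 5.89% of all probesets. The riser was Ccl2, which attracts monocytes, at 2.07, 1.99, 1.01 and 1.85 array medians in native hearts and 4.22, 5.45, 2.81 and 3.28 in isografts (2.29-fold, SE 0.20, adjusted p = 0.0925), which did not pass after quantile normalization. Of 26 interferon-induced genes none passed in the paired fit, and 3 were higher with the wider estimate, beside 5.90% of all probesets (median 0.01). At an unadjusted p of at most 0.05, 6 were higher and 3 lower, beside 1544 and 1997 of all 15866 probesets. Of 27 complement and coagulation genes 2 rose and none fell (median 0.28), beside 1.30% and 0.460% of all probesets. Serping1, the inhibitor of complement C1, rose 2.43-fold (SE 0.16), and C1s, a protease of that complex, rose from 5.14 to 7.19 array medians to 14.1 to 15.3 (2.29-fold, SE 0.17).

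Most cytoskeleton and adhesion genes had higher signals in isografts, by small amounts. Of 51 measured 6 rose and none fell, beside 1.30% of all probesets that were higher. With the spread of 18 arrays 22 were higher and none lower (5.90% and 5.89% of all probesets), and 41 were higher in 4 of 4 pairs (14.4% of all probesets; median 0.60). Actn1, the actin crosslinker of non-muscle cells, was at 1.69, 0.909, 1.34 and 1.13 array medians in native hearts and at 3.95, 5.43, 5.86 and 4.38 in isografts (3.92-fold, SE 0.26, adjusted p = 0.0815). Nes, the intermediate filament nestin of progenitor and wound cells, rose 3.58-fold (SE 0.31). After quantile normalization Actn1 and Nes did not pass. Myl1, a light chain of skeletal and fetal muscle, rose 2.46-fold (SE 0.20) and Fkbp10, a chaperone of collagen folding, 2.59-fold (SE 0.17). Each was the single riser of its list, Myl1 among 29 genes of fat, mesothelium, cartilage and skeletal muscle and Fkbp10 among 35 of heat shock and protein folding, and no gene of these lists fell.

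Of the endothelial, nerve and cell cycle lists, only the nerve list had members past the paired fit. The endothelial receptor Kdr was at 4.64 to 6.00 array medians in native hearts and 5.03 to 5.58 in isografts (log2 0.00, SE 0.16), and Pecam1, an adhesion molecule between endothelial cells, was at 0.20 (SE 0.18, adjusted p = 0.541). None of 35 endothelial genes and none of 35 cell cycle genes passed in the paired fit. With the wider estimate 3 and 4 of them were higher and 2 and 0 lower, beside 5.90% and 5.89% of all probesets. At an unadjusted p of at most 0.05, 3 and 6 were higher and 4 and 1 lower, beside 1544 and 1997 of all 15866 probesets. Beside 1.30% and 0.460% of all probesets, 2 of 31 genes of autonomic nerve and Schwann cells rose and none fell. They were Uchl1 and the growth cone protein Gap43, which was at 0.341 to 0.512 in native hearts and 0.939 to 1.38 in isografts (2.67-fold, SE 0.16), while its dimmer probeset was at -2.60 (adjusted p = 0.194). Of 25 genes of the response to hypoxia and ischemia none passed in the paired fit. With the spread of 18 arrays 2 were higher and 7 lower, beside 5.90% and 5.89% of all probesets (3 and 7 at an unadjusted p of at most 0.05). The lists of protein breakdown (30 genes), oxidative stress (35), apoptosis (33), immediate early genes (32), clock and glucocorticoid targets (23), cytosolic ribosomal proteins (40), energy buffering (16), smooth muscle and pericytes (20), cardiac and metabolic transcription factors (32) and B lymphocytes (3) also had no member past the paired fit. With the wider estimate each of these lists had 0 to 4 higher and 0 to 4 lower members, and at an unadjusted p of at most 0.05 it had 1 to 8 higher and 0 to 6 lower.

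The leading genes that fell are known for different roles. Pla2g2a, a secreted phospholipase, was at 13.7, 9.82, 10.6 and 8.21 array medians in native hearts and at 2.66, 1.27, 4.14 and 2.27 in isografts (4.39-fold lower, log2 -2.14, SE 0.30, adjusted p = 0.0823). Rab3b, a GTPase of vesicle release, was at 23.0, 24.2, 18.8 and 27.7 and at 6.65, 3.82, 8.10 and 6.10 (3.90-fold lower, SE 0.28, adjusted p = 0.0823). Card9, an adaptor of innate immune receptors, was at 14.9, 15.0, 10.9 and 19.6 and at 5.94, 1.91, 3.11 and 5.65 (3.93-fold lower, SE 0.31, adjusted p = 0.0889). For all 3 the isograft of rat 11 had the lowest signal and the groups did not overlap. C1h19orf81 was 3.62-fold lower (SE 0.28) and LOC100909739 3.31-fold lower (SE 0.20).

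The list medians differed between the 4 pairs. With 1 array per heart, a difference between rats cannot be told apart from one between samples or arrays. The median change of the 18 collagens was 1.56 in rat 9, 2.52 in rat 11, 1.84 in rat 12 and 1.78 in rat 13 on the log2 scale. For the respiratory chain genes it was -0.28, -0.96, -0.51 and -0.54. For macrophage genes it was 0.71, 1.13, 1.24 and 0.56. The pair of rat 11 thus had both the largest collagen rise and the largest respiratory chain decrease. In that pair the summed ventricular markers were 586 array medians in the native heart and 376 in the isograft, whereas in rat 9, with 680 and 685, the respiratory chain median was closest to 0. The isografts of rats 11 and 12 also had the higher array medians before scaling. The part of muscle content and of scaling in these differences was not tested. In all 4 rats collagen and macrophage medians were above 0 and respiratory chain, citric acid cycle and fatty acid medians below 0, while the median of all probesets ran from -0.14 to -0.02.

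**Figure D4:**
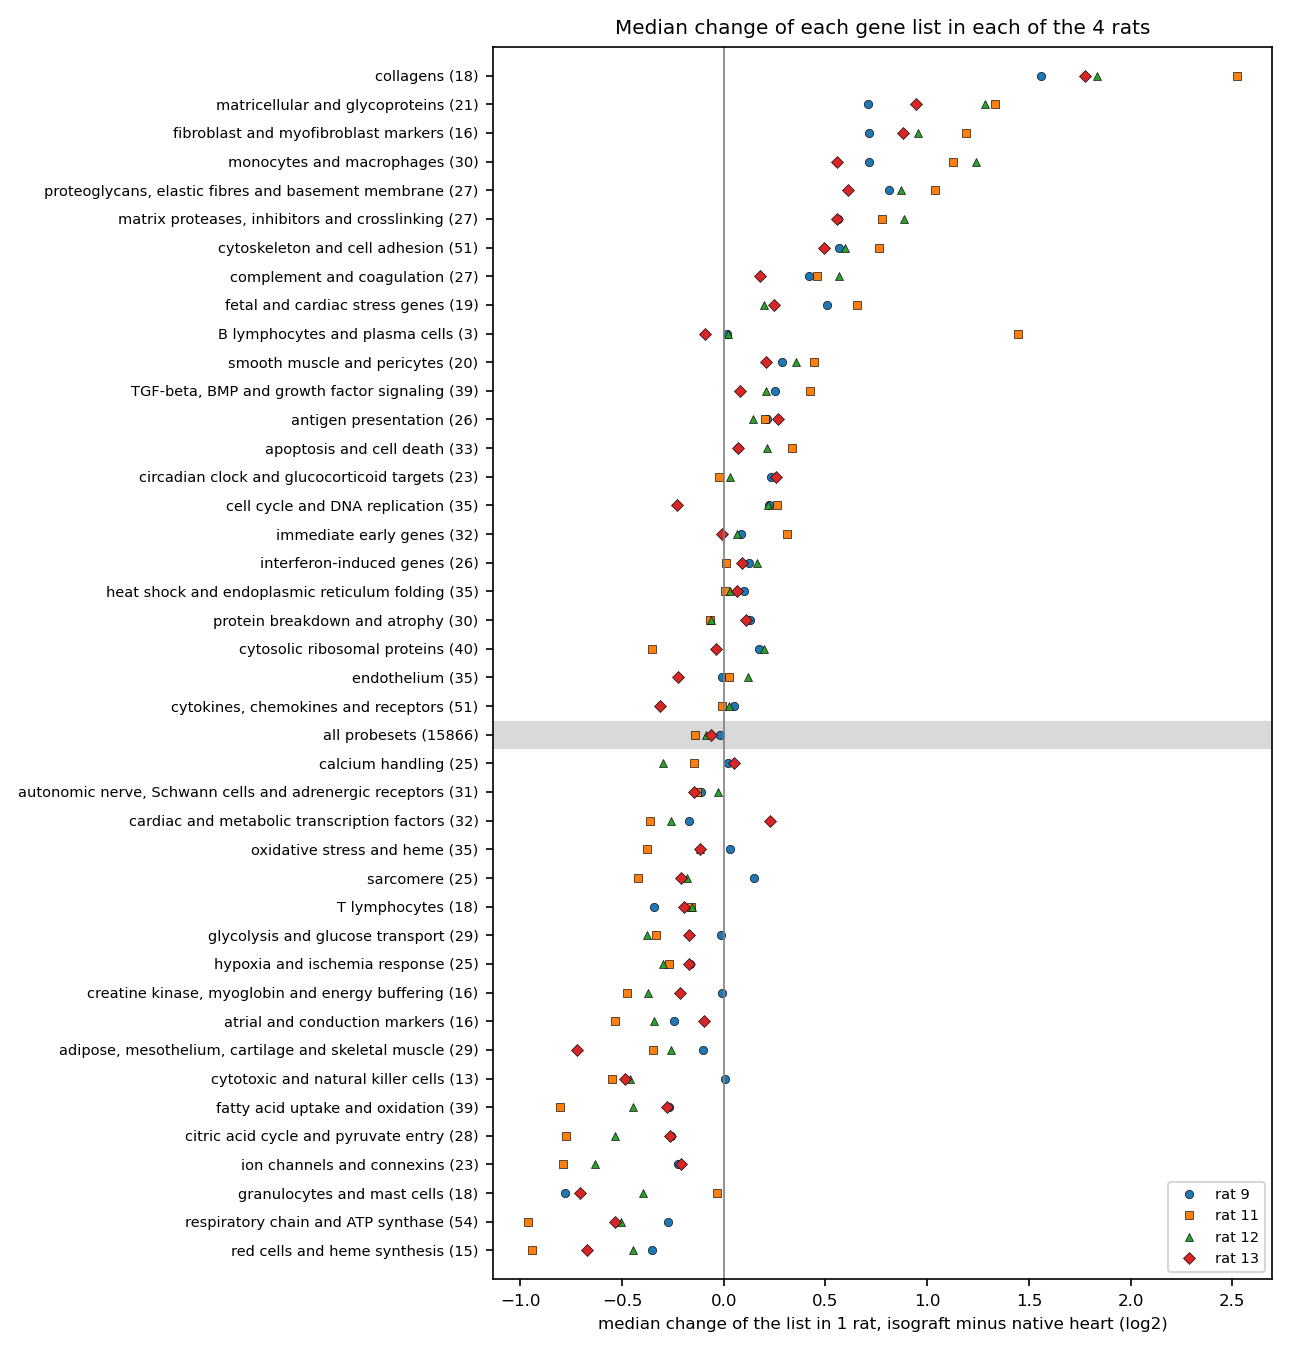
Median change between isograft and native heart (log2) of each gene list in rats 9, 11, 12 and 13, 1 symbol per rat, with the number of measured genes in brackets and all probesets on the grey line. Collagens run from 1.56 to 2.52 at the top, and respiratory chain genes from -0.96 to -0.28 near the bottom.

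The change in isograft pairs was set against the change in the 5 pairs of DA allograft and native BN heart, over 18 arrays in limma. Over all probesets 4494 (28.3%) differed between the pair types at an adjusted p of at most 0.10, and of the 18 leading genes 9 did. The leading genes were chosen for large changes in the isograft pairs, and these changes enter the difference. Their share therefore cannot be set against that of all probesets, and the differences below are descriptions. The allograft pairs differ from the isograft pairs both in rejection and in the strain of the native heart, which cannot be told apart here. Thbs4 rose more in isograft pairs, by 3.59 against 1.75 on the log2 scale (difference 1.84, SE 0.29, adjusted p = 0.00211). So did Plxdc2, by 3.40 against 1.72 (difference 1.68, SE 0.41, adjusted p = 0.0187), and Postn, by 6.09 against 4.40 (difference 1.69, SE 0.64, adjusted p = 0.0968). Postn ran from 0.849 to 24.8 array medians over the 5 allografts and from 17.6 to 32.9 over the 4 isografts.

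Other leading genes changed more in allograft pairs. Tnc rose by 5.19 against 3.45 in isograft pairs (difference -1.75, SE 0.61, adjusted p = 0.0731) and Gpnmb by 4.88 against 3.55 (difference -1.33, SE 0.48, adjusted p = 0.0805). Rab3b was lower by 4.57 in allograft pairs and by 1.96 in isograft pairs (difference 2.60, SE 0.36, adjusted p = 0.00130), and Tmem38a and LOC100909739 differed in the same way, by 2.28 (SE 0.62) and 2.42 (SE 0.47). For Prss35, Col1a1, Col1a2, Srpx2, Cd93, Col18a1, Pla2g2a and C1h19orf81 the difference did not pass (adjusted p from 0.122 to 0.953). Aebp1 rose by 3.24 in isograft pairs and was at 0.00 (SE 0.85) in allograft pairs, with an adjusted p of 0.105 for the difference.

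**Figure D5:**
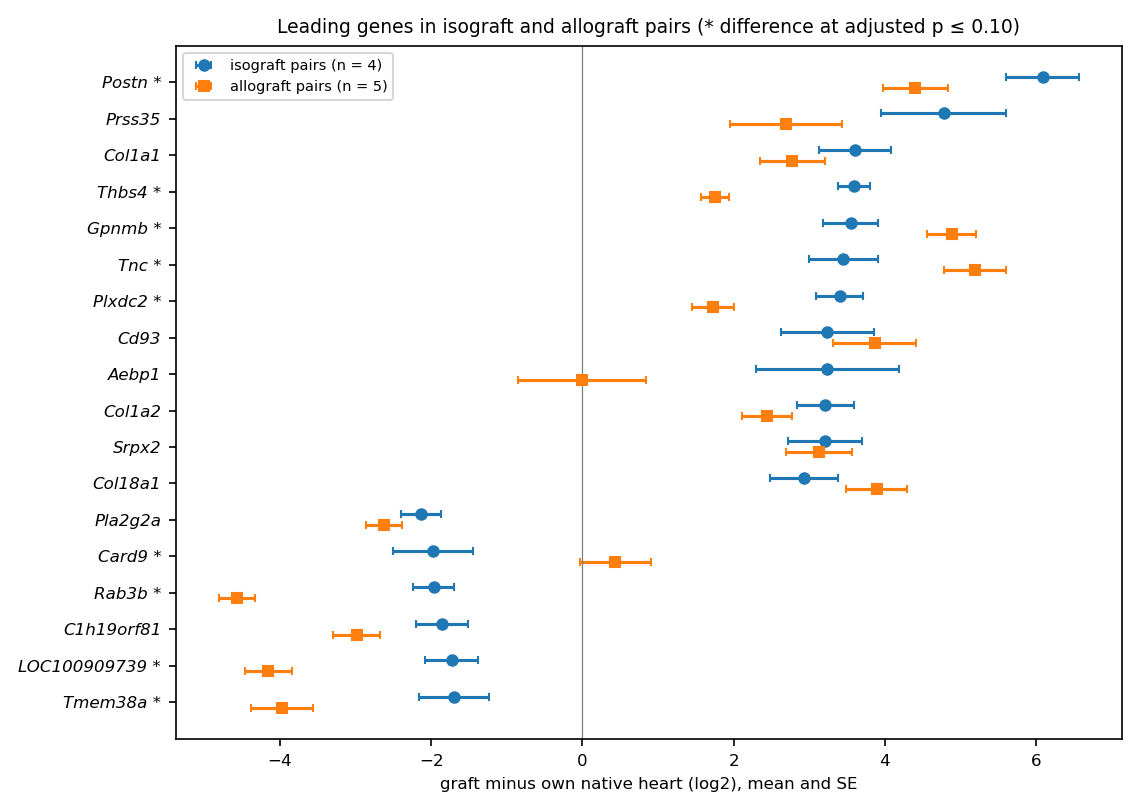
Change between graft and own native heart (log2, mean and SE from the fit of 18 arrays) of the 18 leading genes in 4 isograft pairs (circles) and 5 allograft pairs (squares), with a star where the difference passed at an adjusted p of at most 0.10. Thbs4 lies at 3.59 in isograft and 1.75 in allograft pairs, and Rab3b at -1.96 and -4.57.

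For Card9 the native DA and native BN hearts themselves stood apart. Native DA hearts had 10.9 to 19.6 array medians and isografts 1.91 to 5.94, while native BN hearts had 0.0969 to 0.749 and allografts 0.139 to 0.620. Its changes were -1.98 in isograft and 0.43 in allograft pairs (difference -2.41, SE 0.70, adjusted p = 0.0374). Acta1, read the same way after its values were seen, was another such gene. It was at 6.72 to 8.94 array medians in native DA hearts and 35.7 to 55.3 in native BN hearts, at 45.8 to 60.0 in isografts and at 21.6 to 60.7 in allografts. The isografts therefore overlapped the native BN hearts for Acta1. For Ccn2 and Igf1, also read after their values were seen, the changes were 2.34 and 2.04 in isograft pairs and 0.44 and -0.25 in allograft pairs (differences 1.89 and 2.29, adjusted p = 0.00272 and 0.000739). Ccn2 was at 3.44 to 4.32 array medians in native DA and 5.59 to 9.89 in native BN hearts, without overlap. Igf1 overlapped, at 1.83 to 2.86 and 2.73 to 4.18. The leading gene Pla2g2a also stood apart, at 8.21 to 13.7 in native DA and 25.4 to 54.0 in native BN hearts.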

How the data were processed

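Expression was measured with 1 RAE230A array per heart. For each probeset the authors deposited 1 signal intensity on a linear scale from the array software (MAS5 in the submitters' processing notes, version not given in the sources used here), at a trimmed mean near 100 on each array. Here each array was divided by its median and transformed to log2, which follows the authors' normalization. Present calls were not used, and signals that reached the array median took their place. Array medians of the 8 hearts ran from 38.8 to 47.0 (signal intensity), no 2 arrays held identical values, and 20 columns of samples from the blood part of the series were not used. After 57 control probesets were left out, 15866 were tested.

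Isografts and native hearts were compared in limma 3.58.1 under R 4.3.3 (lmFit, eBayes), with the rat as a block, where the study's methods name an analysis of variance. A call needed an adjusted p (Benjamini-Hochberg) up to 0.10, a 3-fold or larger difference and the signal criterion in 50% or more of the hearts of either group. A fold change is 2 to the power of the mean paired log2 difference, and SE is that of the difference on the log2 scale. A native heart and an isograft with the same number in their labels were taken to come from 1 recipient. After group means were removed, same-rat correlations were 0.116, -0.119, 0.22 and 0.122 for rats 9, 11, 12 and 13. Correlations between a native heart and an isograft of different rats ran from -0.31 to 0.251, so the values do not set same-rat pairs apart. The same difference was also fitted over all 18 heart arrays, and isograft and allograft pairs were contrasted there. The p-values of the paired fit measure the spread between 4 rats. Those from the fit of 18 arrays also draw on the allograft recipients, so rejecting allografts and native BN hearts enter that spread. So few arrays limit the precision.

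Symbols came from the platform annotation, updated by gene identifier to GRCr8 names (12783 probesets had 1 symbol, 312 several and 2771 none; 12748 of the first matched the assembly's table). A gene in a list is represented by its brightest probeset over the 8 arrays. Named genes are the 12 called genes with the largest rise and up to 12 with the largest fall, with 1 symbol and the same direction in 4 pairs (6 fell), up to 3 members per list, those that moved most among the ones past an adjusted p of 0.10, and the cell type markers; genes named outside this rule are marked in the text. The 41 lists held 1311 genes, 1052 of them measured. The rats, lists and genes were chosen with earlier results of these data known, so no list was tested and its count is a description. Of the cell type markers, Actc1, Cd79a, Mpo, Cdh5 and Adipoq were among those not measured by a probeset with 1 symbol. Promoters are RefSeq sequences of GRCr8.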

Additional observations from a re-analysis of the deposited data

Results flagged for a closer look

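Among 162 groups of 4 hearts (native hearts or isografts, for 81 probesets of named genes), 9 values lay far from the other 3 by Dixon's criterion. Chance alone meets it in about 1 in 20 groups, which is about 8 here, so the count is near that level. For Tmem38a the isograft of rat 13 was at 1.71 array medians and the others at 1.02 to 1.05. For Thy1 the isograft of rat 9 was at 0.769 and the others at 1.48 to 1.52. For Cd68 and Ccl2 the native heart of rat 12 was lowest, at 0.922 (others 1.20 to 1.26) and 1.01 (others 1.85 to 2.07). For Sln, an atrial regulator of the calcium pump, the isograft of rat 9 was at 0.163 (others 0.343 to 0.393). For Cd3g the native heart of rat 13 was at 0.129 (others 0.667 to 0.891), and for Cd79b the native heart of rat 12 was at 0.802 (others 0.106 to 0.132). For Myh11, a smooth muscle myosin, the isograft of rat 12 was at 2.94 (others 1.81 to 1.90). For Myh4 the native heart of rat 9 was at 0.0251 (others 0.125 to 0.156).

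The change in isograft pairs minus that in allograft pairs passed an adjusted p of 0.10 in limma for 9 leading genes, which had been chosen by their change in isograft pairs. On the log2 scale it was 1.69 for Postn, 1.84 for Thbs4, 1.68 for Plxdc2, 2.60 for Rab3b, 2.42 for LOC100909739 and 2.28 for Tmem38a. It was -1.33 for Gpnmb, -1.75 for Tnc and -2.41 for Card9.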

How the results depend on the processing

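The paired fit of 8 arrays called 89 probesets higher and 7 lower. Without the replicate block, that is with the rats not paired, 124 and 9 were called over 8 arrays and 131 and 13 over 18 arrays, and all 89 and all 7 were among them. With the replicate block over all 18 arrays the counts were 129 and 13 (87 and 7 shared), with an intensity trend in eBayes 136 and 16, with quantile normalization 82 and 8, and with 0.25 array medians added before log2 82 and 6. A fold change of at least 2 gave 166 and 25, and without the signal criterion 34 were lower. Without replicate 9, 11, 12 or 13 the counts ran from 0 to 0 in both directions (lowest adjusted p from 0.116 to 0.229), while at an unadjusted p of at most 0.05 from 1105 to 1342 probesets were higher and from 1324 to 1512 lower, and at a fold of 3 at least 81 of the 89 and 5 of the 7 remained. At the adjusted threshold alone, 207 and 73 passed in the paired fit, 834 and 615 without the block, 936 and 935 with the spread of 18 arrays and 176 and 51 after quantile normalization. No named gene that passed reversed its direction under these settings. The difference between pair types passed for 9 of 18 leading genes, and for 7 after quantile normalization, 8 without the block and 11 with 0.25 added. The medians of 8 lists changed sign with scaling, among them sarcomere (-0.19, and 0.09 after quantile normalization) and calcium handling (0.05, and -0.06 with 0.25 added), and no direction is given for them. Signals far below the array median limit the size of the largest folds.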
